A study of Homo sapiens with 9 samples.

Results

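The 10 genes described here, CCND1, LTO1, FGF19, ANO1, FADD, PPFIA1, CTTN, SHANK2, DHCR7 and NADSYN1, lie side by side on chromosome 11 in bands 11q13.3 to 11q13.4, within 1.88302 Mb. They are 10 of 52165 gene identifiers listed in both deposited count tables. The set was chosen by a measured value, the level of DHCR7, which was abundant in the TE11 controls and had 0 counts in the other groups, and the question asked of the data was whether the genes around it followed the same pattern. Because that choice rests on the TE11 samples, the TE11 differences below are a description without a test, and the tested comparison is the one within Kyse150.

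TE11 and Kyse150 are established lines of human esophageal squamous cell carcinoma. The study used a lentivirus to bring an shRNA against KDM2A, a histone H3 lysine 36 demethylase, into both lines, and asked which transcripts lie downstream of it. Poly(A) RNA was sequenced from 9 libraries in 4 groups: 2 libraries labelled TE11 KDM2A knockdown (shKDM2A), 3 TE11 controls (shNC), 2 Kyse150 KDM2A knockdowns (shKDM2A) and 2 Kyse150 controls (shNC). All cells were grown in the same RPMI medium with serum. A second shRNA against KDM2A is not named, and neither is whether a group is a clone or a pool, so less KDM2A and any other effect of the hairpin cannot be told apart. What separates the replicates is not named either, and part of the spread on which the p-values rest may be technical.

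The libraries held 8457767 to 12073098 gene counts in TE11 and 6052883 to 7167055 in Kyse150. Levels are given as CPM, counts scaled to a common library size, with TMM scaling within the table of each line. KDM2A, which lies closer to the centromere on the same chromosome arm, checks the labels. It measured 126 and 140 CPM in the libraries labelled TE11 knockdown, against 120, 116 and 120 CPM in the TE11 controls, so it was not lower under that label (log2 fold change 0.16, SE 0.07). In Kyse150 it measured 107 and 104 CPM in the knockdowns and 172 and 175 CPM in the controls, a fall to 0.611-fold (edgeR quasi-likelihood test, adjusted p = 3.87e-09). Across 12079 coding genes in both tables, Pearson's r of the libraries labelled TE11 knockdown was 0.922 to 0.928 against the Kyse150 controls, whereas against the TE11 controls it was 0.782 to 0.784 (values of log2(CPM + 1), across genes that are not independent replicates; the tables were scaled separately). Every TE11 direction below is therefore between the libraries as labelled.

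Markers of the labelled cell type other than SOX2 were detected in all groups. The summed level of 11 squamous epithelium markers was 1970 to 2030 CPM in the libraries labelled TE11 knockdown, 5450 to 5880 in the TE11 controls, 1950 to 1980 in the Kyse150 knockdowns and 2110 to 2180 in the Kyse150 controls. KRT5 alone averaged 1010, 2680, 1040 and 1230 CPM in these groups in that order, a large part of each sum. Of these markers SOX2, a squamous lineage transcription factor, had 1 count over the libraries labelled TE11 knockdown and 739 over the TE11 controls. It had 1 count over the Kyse150 knockdowns and 1 over the Kyse150 controls. The columnar markers, mainly keratins 8 and 18, summed to 6150 to 6350, 2720 to 3060, 7250 to 7810 and 6450 to 6540 CPM in the same 4 groups, and CDX2 was at 0 in all 9 libraries. Fibroblast markers summed to at most 21.2 CPM, endothelial markers to at most 7.94 and leukocyte markers to at most 1.42, with PTPRC at 0 throughout. These marker levels move with the TE11 difference described next, and their part in it was not tested. In bulk RNA, fewer cells of a type and less RNA per cell cannot be told apart.

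Band 11q13 is one of the regions most often gained as a block in squamous carcinomas of the esophagus and of the head and neck. The block usually centres on CCND1, whose product, cyclin D1, activates the kinases CDK4 and CDK6 in the G1 phase of the cell cycle, and its edges differ between tumours, so genes such as CTTN, FADD and ANO1 are often gained with it. DHCR7, on the telomeric side, encodes the enzyme of the last step of cholesterol synthesis by one of its routes, the reduction of 7-dehydrocholesterol, and NADSYN1 beside it encodes glutamine-dependent NAD synthetase. Copy number was not measured here.

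DHCR7 and NADSYN1 are neighbours read in opposite directions, away from each other, and they are the members with the largest difference between the TE11 groups. Their promoters are shown because these genes, at the telomeric end of the set, carry that difference; each line gives the 250 bases before the RefSeq transcription start (GRCh38.p14), with matches to CCAAT and GGGCGG on either strand in capitals. The windows are chr11:71448394-71448643, minus strand, for DHCR7 and chr11:71452953-71453202, plus strand, for NADSYN1.
DHCR7: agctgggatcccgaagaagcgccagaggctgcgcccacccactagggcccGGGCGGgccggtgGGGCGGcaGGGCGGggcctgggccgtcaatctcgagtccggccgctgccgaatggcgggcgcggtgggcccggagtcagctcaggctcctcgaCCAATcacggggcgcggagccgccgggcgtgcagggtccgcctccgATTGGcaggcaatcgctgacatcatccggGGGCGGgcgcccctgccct
NADSYN1: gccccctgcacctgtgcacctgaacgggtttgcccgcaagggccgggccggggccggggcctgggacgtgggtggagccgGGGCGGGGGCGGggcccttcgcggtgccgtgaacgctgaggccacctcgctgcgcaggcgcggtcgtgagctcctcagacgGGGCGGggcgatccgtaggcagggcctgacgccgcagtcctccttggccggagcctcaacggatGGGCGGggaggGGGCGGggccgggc
The DHCR7 window holds 2 CCAAT matches, letters that the factor NF-Y is known to bind, and 4 GGGCGG matches, the GC box of SP1. The NADSYN1 window holds 5 GGGCGG matches and 0 CCAAT matches. Among 35116 RefSeq promoter windows of that length, 32.0% hold CCAAT and 42.6% hold GGGCGG, so these letters are common. Neither window holds TCACNCCAC, letters of the sterol regulatory element (0.883% of windows), the E-box CACGTG (6.34%) or TATAAA (10.7%). No 2 of the matched motifs overlap in either window. The starts of DHCR7 and NADSYN1 used here are 4810 bases apart. A second RefSeq start of DHCR7 lies in the span between them, and its window holds 0 matches to the motifs searched.

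In TE11 the genes of the set differed in the same direction with 1 exception. Of the 10 members, 9 were lower in every library labelled TE11 knockdown than in every TE11 control, and SHANK2 was higher; over all 16453 genes tested in TE11, 45.2% stood apart in the lower direction and 39.1% in the higher. At a fold of 2 or more, 7 members were lower and 1 was higher, beside 26.8% and 15% of all genes. DHCR7 chose the set, so nothing is read from these shares. The summed level of the 10 members was 1180 and 1160 CPM in the libraries labelled TE11 knockdown, against 7850, 7260 and 7450 CPM in the TE11 controls. In Kyse150 the sums were 1150 and 1140 CPM in the knockdowns and 1500 and 1510 CPM in the controls.

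**Figure D1:**
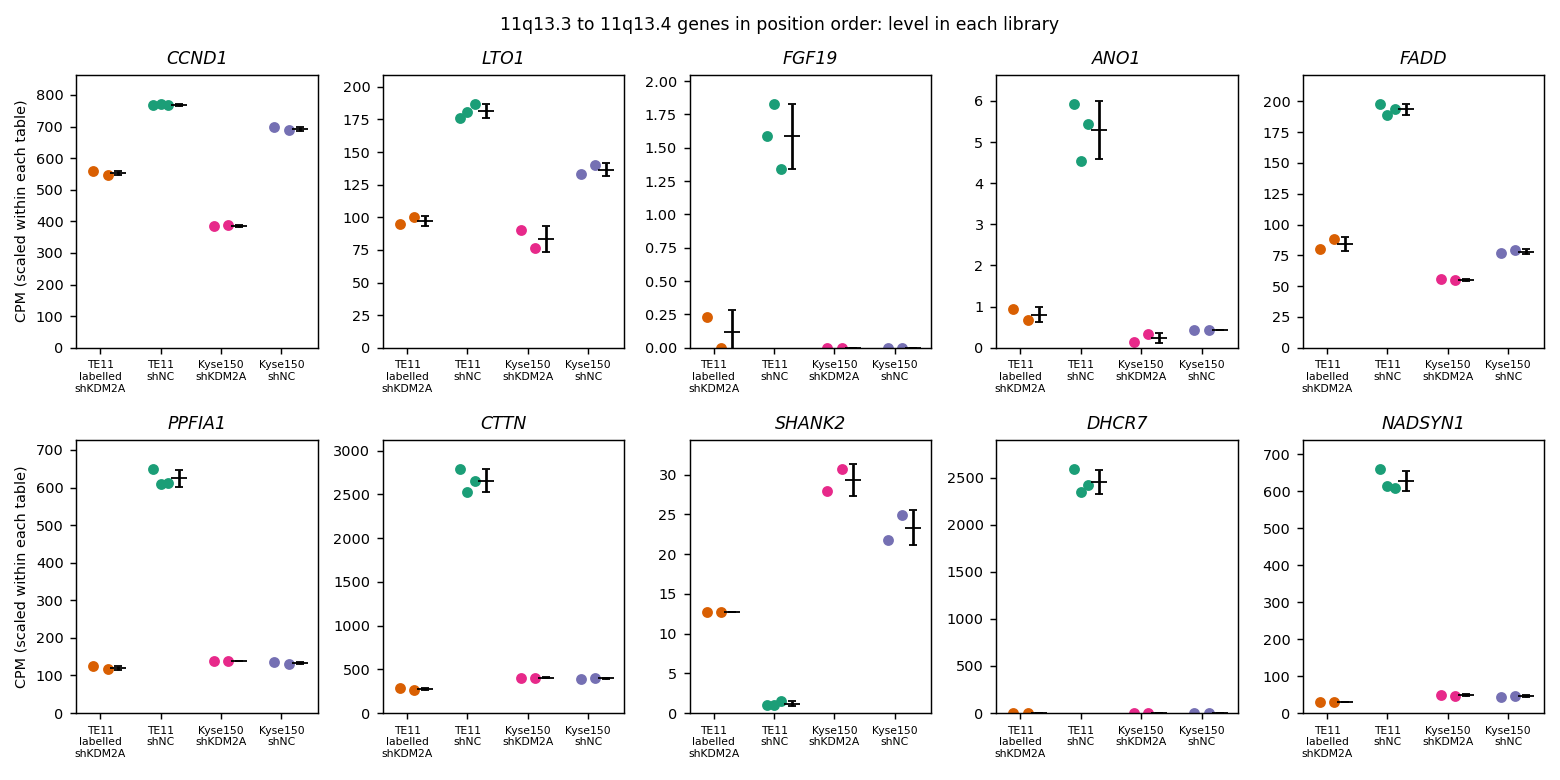
Level of each of the 10 genes in each library, in CPM scaled within the table of its line (linear axes starting at 0). Points are libraries, and the bar beside each group is the mean with its SD (n = 3 for the TE11 controls and 2 for the other groups). The TE11 controls are the highest group for every gene but SHANK2, where they are the lowest at 0.96 to 1.5 CPM.

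CCND1 (ENSG00000110092, chr11:69641087-69654474 on GRCh38, plus strand) is at the centromeric end of the set. It measured 558 and 548 CPM in the libraries labelled TE11 knockdown and 767, 772 and 768 CPM in the TE11 controls. In Kyse150 it measured 384 and 388 CPM in the knockdowns and 698 and 689 CPM in the controls. The TE11 groups do not overlap, and the difference is the smallest of the set (log2 fold change -0.48, SE 0.06, or 0.719-fold). Cyclin D1 transcript was thus abundant in all 4 groups, and of all members its TE11 controls lay closest to the Kyse150 controls, at 1.11 times their level.

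LTO1 (ENSG00000149716, chr11:69653076-69675416, minus strand), once named ORAOV1, encodes a protein that acts in the maturation of the ribosome recycling factor ABCE1. Its level was 94.5 and 100 CPM in the libraries labelled TE11 knockdown and 176, 181 and 187 CPM in the TE11 controls, or 0.538-fold (log2 -0.90, SE 0.07). The Kyse150 knockdowns had 90.2 and 76.2 CPM and the Kyse150 controls 133 and 140 CPM. Both control groups stood above both knockdown groups. LTO1 and CCND1 share 497 exon bases on opposite strands, and since no source used here gives the strand setting, reads from that stretch cannot be told apart.

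FGF19 (ENSG00000162344, chr11:69698232-69704642, minus strand), a hormone-like fibroblast growth factor that signals through FGFR4 with the co-receptor KLB, was close to the limit of detection. It had 2 and 0 counts in the libraries labelled TE11 knockdown and 18, 21 and 16 counts in the TE11 controls. The ratio of the levels was 0.0718 (exact 95% counting interval 0.00848 to 0.272). All 4 Kyse150 libraries had 0 counts, which allows up to 0.425 to 0.485 CPM per library (3 counts).

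ANO1 (ENSG00000131620, chr11:70078302-70189528, plus strand), a calcium-activated chloride channel, was low as well. It measured 0.931 and 0.668 CPM in the libraries labelled TE11 knockdown, on 8 and 6 counts, and 5.93, 4.54 and 5.43 CPM in the TE11 controls, on 67, 52 and 65 counts (0.152-fold; log2 -2.72, SE 0.36). The Kyse150 knockdowns had 1 and 2 counts and the Kyse150 controls 3 and 3, a ratio of 0.54 whose 95% counting interval runs from 0.0874 to 2.53. A difference in Kyse150 was not detectable at this depth. The antisense transcript ANO1-AS1 has all its 646 exon bases inside exons of ANO1.

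FADD (ENSG00000168040, chr11:70203163-70207390, plus strand) encodes the adaptor that links death receptors to caspase 8. It measured 80.5 and 88.3 CPM in the libraries labelled TE11 knockdown and 198, 189 and 194 CPM in the TE11 controls (0.435-fold; log2 -1.20, SE 0.07). The Kyse150 knockdowns had 55.7 and 54.7 CPM and the Kyse150 controls 76.6 and 79.4 CPM. No library of a knockdown group reached its own controls. The antisense gene AP000879.1 shares 1011 exon bases with FADD, all of its own, and its TE11 log2 fold change was -1.11, close to that of FADD.

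PPFIA1 (ENSG00000131626, chr11:70270700-70385312, plus strand) encodes liprin alpha 1, a scaffold of focal adhesions and cell edges. Its level was 124 and 117 CPM in the libraries labelled TE11 knockdown and 649, 610 and 613 CPM in the TE11 controls (0.193-fold; log2 -2.37, SE 0.07). In Kyse150 the knockdowns had 139 and 139 CPM and the controls 136 and 131 CPM. The TE11 controls stood alone above the other 6 libraries, which lay between 117 and 139 CPM.

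CTTN (ENSG00000085733, chr11:70398404-70436584, plus strand), which encodes cortactin, an activator of branched actin at the cell cortex, was the most abundant member in the TE11 controls by CPM. It measured 281 and 264 CPM in the libraries labelled TE11 knockdown and 2790, 2530 and 2650 CPM in the TE11 controls (0.103-fold; log2 -3.29, SE 0.06). The Kyse150 knockdowns had 406 and 401 CPM and the Kyse150 controls 390 and 401 CPM. Here too the TE11 controls stood alone, and the Kyse150 groups overlapped. CTTN-DT, a transcript that starts at the same place and runs the other way, had a log2 fold change of -2.56 in TE11. It averaged 18.9 ± 0.203 CPM in the libraries labelled TE11 knockdown (SD, n = 2). In the TE11 controls it averaged 111 ± 8.98 CPM (SD, n = 3). CTTN-DT shares 85 exon bases with CTTN on the opposite strand, and reads from that stretch cannot be told apart.

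SHANK2 (ENSG00000162105, chr11:70467856-71252577, minus strand), a scaffold protein best known from synapses and also found in epithelia, went the other way. The libraries labelled TE11 knockdown had 12.7 and 12.7 CPM, on 109 and 114 counts, and the TE11 controls 1.06, 0.96 and 1.5 CPM, on 12, 11 and 18 counts. This is a 10.6-fold higher level (log2 3.41, SE 0.24). The Kyse150 knockdowns had 27.9 and 30.7 CPM and the Kyse150 controls 21.8 and 24.9 CPM, so every library outside the TE11 controls was above them. SHANK2 lies between CTTN and DHCR7, so the genes with lower levels in the libraries labelled TE11 knockdown are not an unbroken run.

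DHCR7 (ENSG00000172893, chr11:71428193-71452868, minus strand) had 0 counts in both libraries labelled TE11 knockdown and 29292, 26955 and 29013 counts in the TE11 controls. The TE11 controls thus measured 2590, 2350 and 2420 CPM, and DHCR7 alone took 0.233% to 0.256% of their gene counts. It ranked 23 by mean control level among all 60683 identifiers of the TE11 table. Against a floor of 3 counts over the group, the libraries labelled TE11 knockdown were at least 14400-fold lower. All 4 Kyse150 libraries had 0 counts as well. These are the values that chose the set.

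NADSYN1 (ENSG00000172890, chr11:71453109-71524107, plus strand) begins 241 bases beyond the outermost annotated start of DHCR7. It had 29 and 28.8 CPM in the libraries labelled TE11 knockdown and 660, 615 and 609 CPM in the TE11 controls, or 0.046-fold (log2 -4.44, SE 0.08). In Kyse150 the knockdowns had 49.9 and 45.8 CPM and the controls 43.6 and 46.9 CPM. NADSYN1 thus has the difference closest in size to that of DHCR7 among the members, but it was detected in all 9 libraries, whereas DHCR7 was detected in 3.

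The order of the 4 groups was not the same for all members. For CCND1 and LTO1 it was, from high to low, TE11 controls, Kyse150 controls, libraries labelled TE11 knockdown, Kyse150 knockdowns. For ANO1 and FADD the middle groups changed places. For PPFIA1, CTTN and NADSYN1 the libraries labelled TE11 knockdown were the lowest group, and for CTTN and NADSYN1 the Kyse150 groups overlapped and have no order. SHANK2 ran from the Kyse150 knockdowns over the Kyse150 controls and the libraries labelled TE11 knockdown down to the TE11 controls. Levels across the lines come from tables scaled separately and were not tested.

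By the ratio to the Kyse150 controls, the libraries labelled TE11 knockdown were nearer than the TE11 controls for ANO1, FADD, PPFIA1, CTTN, SHANK2 and NADSYN1. By that ratio the TE11 controls were nearer for CCND1 and LTO1. LTO1 averaged 97.4 CPM in the libraries labelled TE11 knockdown, 181 in the TE11 controls and 137 in the Kyse150 controls. For LTO1 the nearer group thus turns on the measure, since by the difference in CPM it is the libraries labelled TE11 knockdown. The ratio of the mean levels of the libraries labelled TE11 knockdown to the Kyse150 controls was 1.08 for FADD, 0.896 for PPFIA1, 0.797 for CCND1 and 0.711 for LTO1. It was 0.689 for CTTN, 0.638 for NADSYN1 and 0.543 for SHANK2, and 1.85 for ANO1 on few counts. The TE11 controls over the Kyse150 controls gave 13.9 for NADSYN1, 12.3 for ANO1, 6.72 for CTTN, 4.66 for PPFIA1, 2.49 for FADD, 1.32 for LTO1, 1.11 for CCND1 and 0.0504 for SHANK2. From CCND1 to NADSYN1 the ratios thus do not rise evenly with position.

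Levels were also divided by the union of all annotated exons of a gene, which is 4160 bases for DHCR7 and 16263 for NADSYN1. This union can be longer than the transcripts present, so the order of the genes by this measure is only rough. By it DHCR7 was the highest member in the TE11 controls at 591 CPM per kb. CTTN followed at 383, CCND1 at 159, FADD at 105, PPFIA1 at 53.3, NADSYN1 at 38.6 and LTO1 at 23 CPM per kb. ANO1, FGF19 and SHANK2 were at 0.88, 0.649 and 0.0626 CPM per kb. In the other 3 groups CCND1 was the highest member by this measure. It had 114 CPM per kb in the libraries labelled TE11 knockdown, 79.9 in the Kyse150 knockdowns and 144 in the Kyse150 controls. The next there was FADD in the libraries labelled TE11 knockdown, at 45.9 CPM per kb, and CTTN in the Kyse150 groups, at 58 in the knockdowns and 57 in the controls.

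The 6 further genes within the span that were tested in TE11 are all annotated as antisense transcripts. Over all genes tested in TE11, 26.8% were at least 2-fold lower and 45.2% stood apart in the lower direction. All 6 were at least 2-fold lower in the libraries labelled TE11 knockdown, without overlap. They overlap the spans of members and are not independent of them, so nothing is read from these shares. Of these, 4 share exon bases with members: all of ANO1-AS1 and AP000879.1, 38.4% of the exon bases of AP002336.3 and 17.8% of those of CTTN-DT. CTTN-DT also shares 85 exon bases with CTTN. Without the strand setting the reads of these 4 genes cannot be told apart from those of ANO1, FADD, PPFIA1 and CTTN in the shared stretches. AP000879.1 averaged 58.8 CPM in the libraries labelled TE11 knockdown, 127 in the TE11 controls, 36.4 in the Kyse150 knockdowns and 50.4 in the Kyse150 controls. FADD averaged 84.4, 194, 55.2 and 78 CPM in the same order. These 4 are therefore not counted as genes that follow the set on their own. The other 2, AP002336.2 and AP002387.1, share 0 exon bases with a member. They lie within the spans of PPFIA1 and DHCR7, and reads from unspliced transcripts of these members cannot be told apart from theirs. AP002336.2 had 3 counts over the libraries labelled TE11 knockdown and 40 over the TE11 controls, a ratio of 0.148 (exact 95% counting interval 0.0293 to 0.465). AP002387.1 (ENSG00000254682), which lies on the opposite strand within the span of DHCR7 and shares 0 exon bases with it, had 0 counts in both libraries labelled TE11 knockdown and 731, 733 and 817 counts in the TE11 controls, or 65.7 ± 2.29 CPM (SD, n = 3). That is at least 385-fold lower, and it too was at 0 in all 4 Kyse150 libraries. AP002336.3, within PPFIA1, measured 9.32 ± 0.507 CPM in the libraries labelled TE11 knockdown (SD, n = 2) and 49 ± 1.55 CPM in the TE11 controls (SD, n = 3).

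Beyond both ends of the set the direction differed. Over all genes tested in TE11, 45.2% stood apart in the lower direction and 26.8% were at least 2-fold lower. Of the 10 nearest genes on the centromeric side with 10 counts or more in any library, 9 were tested in TE11, and all 9 were lower in the libraries labelled TE11 knockdown without overlap, 4 of them at least 2-fold. The largest well-measured difference there was in CPT1A, which encodes the enzyme that commits long-chain fatty acids to mitochondrial oxidation. CPT1A measured 15.8 ± 1.59 CPM in the libraries labelled TE11 knockdown (SD, n = 2) and 351 ± 6.04 CPM in the TE11 controls (SD, n = 3), or 0.0451-fold, about the same ratio as NADSYN1. Between CPT1A and CCND1, MRPL21 (log2 -0.64), IGHMBP2 (-0.88) and MYEOV (-0.73) differed less, and TPCN2, an endolysosomal cation channel, had a log2 fold change of -2.27. PPP6R3, the farthest of the 10, was at -0.11.

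On the telomeric side the next gene with 10 counts or more begins 0.263 Mb after the end of NADSYN1, and the 5 coding genes in the gap have at most 4 counts in any library. Over all genes tested in TE11, 39.1% stood apart in the higher direction and 15% were at least 2-fold higher. Of the next 10 genes, 9 were higher in the libraries labelled TE11 knockdown without overlap, 5 of them at least 2-fold, and XNDC1N overlapped. FAM86C1P, the first of them, measured 15.8 ± 1.31 CPM in the libraries labelled TE11 knockdown (SD, n = 2) and 6.69 ± 1.18 CPM in the TE11 controls (SD, n = 3), a log2 fold change of 1.24. LAMTOR1, a lysosomal anchor of the mTORC1 pathway, was at 146 ± 4.11 and 39.6 ± 3.1 CPM in the same groups, or 3.69-fold. The genes next to this gap thus differ in direction on its 2 sides.

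**Figure D2:**
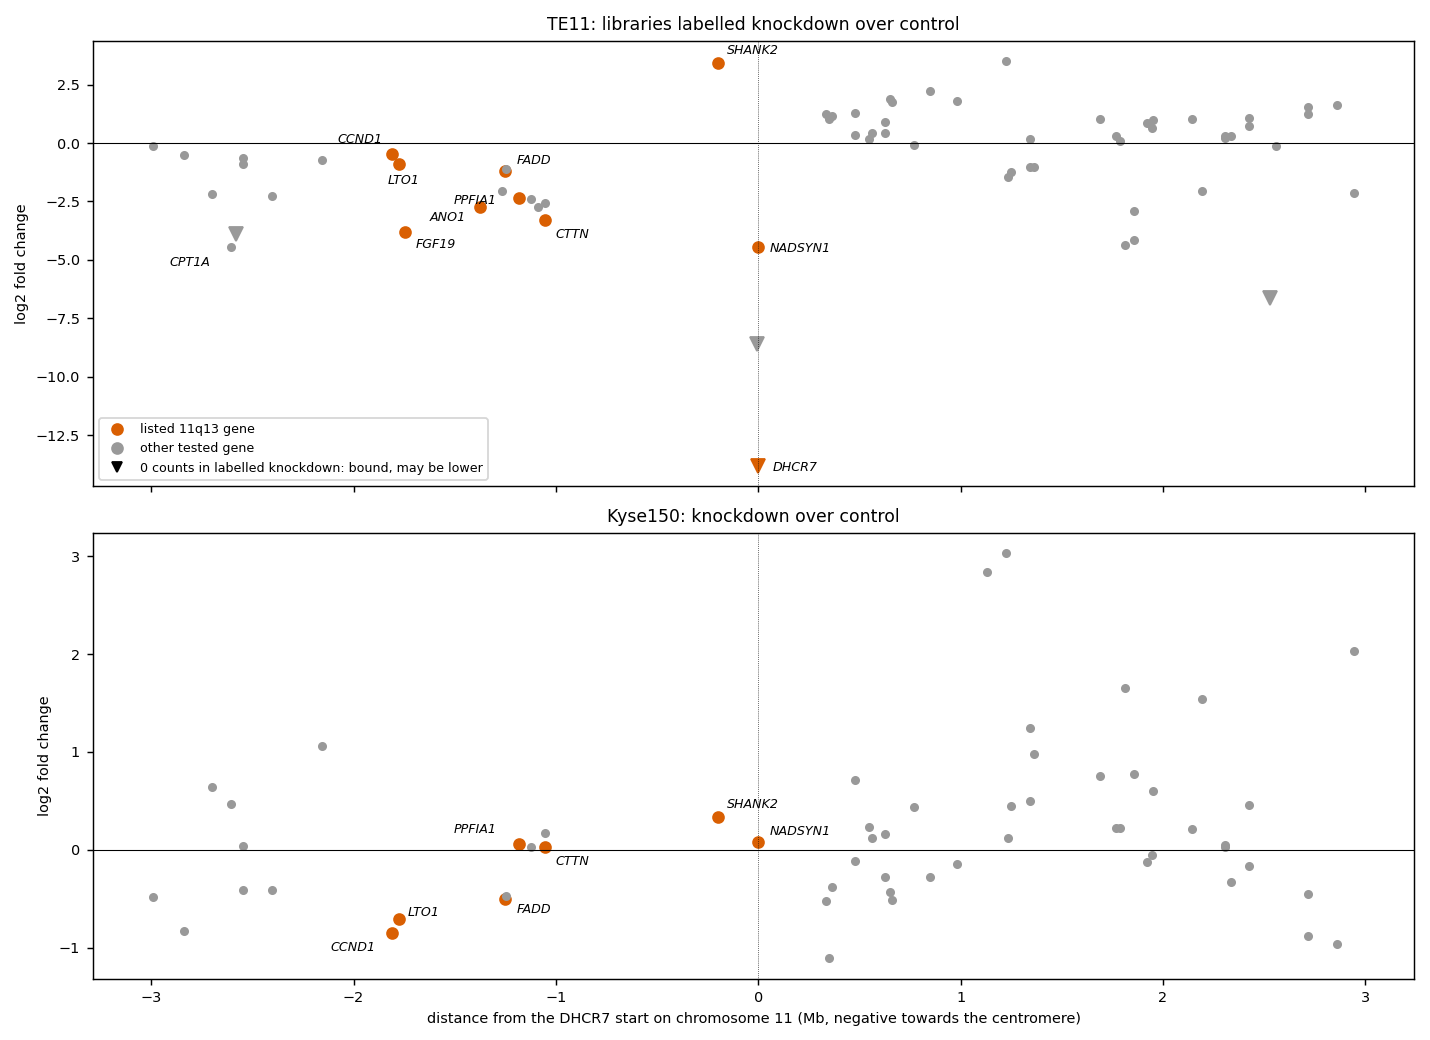
Log2 fold change of each tested gene within 3 Mb of the start of DHCR7, against distance in Mb, for the libraries labelled TE11 knockdown over the TE11 controls (top) and for the Kyse150 knockdowns over the Kyse150 controls (bottom). Orange points are the listed genes, grey points other tested genes, triangles bounds for genes at 0 counts in the libraries labelled knockdown, and FGF19 and AP002336.2 are drawn at their count ratios. In TE11 the points left of DHCR7 lie below 0 except SHANK2 at 3.41, NADSYN1 beside it is at -4.44, and the points nearest to them on the right lie above 0.

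A window of 3 Mb on either side of DHCR7 reaches farther on the telomeric side. On the centromeric side it holds 7 coding genes tested in TE11 that are no members, the same 7 as among the neighbours above, of which 3 were at least 2-fold lower and 0 at least 2-fold higher, with a median log2 fold change of -0.88. On the telomeric side 31 such genes were tested, of which 7 were at least 2-fold lower and 12 at least 2-fold higher, with a median of 0.43. Over all genes tested in TE11 the median was -0.09, with 26.8% at least 2-fold lower and 15% at least 2-fold higher. Farther along the telomeric side lower genes reappear, so the direction there is not uniform.

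**Figure D3:**
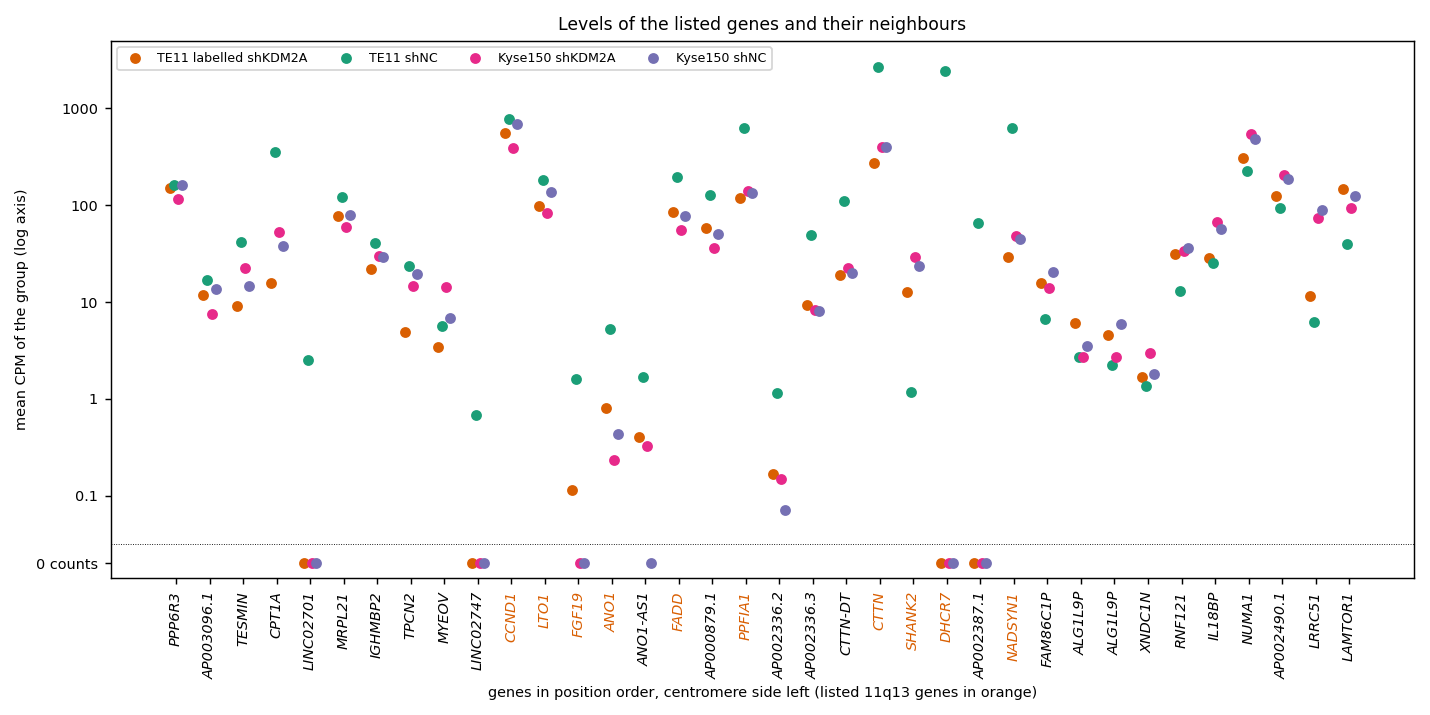
Mean level in CPM (log axis, with 0 counts drawn below the dotted line) of the listed genes, in orange type, and of the transcripts between and next to them, in position order with the centromere to the left. The 4 colours are the groups, with 2 libraries each and 3 in the TE11 controls. From TESMIN to NADSYN1 the TE11 controls are the highest group for all genes but MYEOV and SHANK2, and to the right of NADSYN1 they are the lowest, apart from the first of the ALG1L9P entries, with 2.68 CPM in the Kyse150 knockdowns and 2.74 CPM in the TE11 controls.

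In Kyse150, where only the 0 counts of DHCR7 in both groups entered the choice of the set, 3 members fell with KDM2A knockdown and 0 rose. Of the 10 members 7 had enough counts to be tested, and DHCR7, FGF19 and ANO1 did not. Over all 14060 genes tested, 23.3% fell and 24.8% rose (edgeR quasi-likelihood test, Benjamini-Hochberg adjusted p under 0.05), and 3 of 7 members is too small a count to set them apart from that share. The members that fell are CCND1, LTO1 and FADD. They lie on the centromeric side of DHCR7, as do PPFIA1, CTTN and SHANK2, which did not pass.

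CCND1 averaged 386 ± 3.11 CPM in the Kyse150 knockdowns and 694 ± 6.68 CPM in the Kyse150 controls (SD, n = 2 each), a fall to 0.556-fold (log2 -0.85, SE 0.05; edgeR adjusted p = 3.51e-13). LTO1 averaged 83.2 ± 9.89 CPM in the knockdowns and 137 ± 5.3 CPM in the controls, 0.61-fold (log2 -0.71, SE 0.08; edgeR adjusted p = 5.72e-08). FADD averaged 55.2 ± 0.757 CPM in the knockdowns and 78.0 ± 1.98 CPM in the controls, 0.708-fold (log2 -0.50, SE 0.09; edgeR adjusted p = 5.28e-05). Its antisense partner AP000879.1 fell as well (log2 -0.47; edgeR adjusted p = 8.34e-04), though its reads cannot be told apart from those of FADD. In each case both knockdown libraries were below both controls.

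The other 4 tested members did not pass the threshold. PPFIA1 had a log2 fold change of 0.06 ± 0.07 (SE; adjusted p = 0.545 by edgeR), CTTN of 0.03 ± 0.05 (adjusted p = 0.714) and NADSYN1 of 0.08 ± 0.10 (adjusted p = 0.547). SHANK2 was at 29.3 ± 2.02 CPM in the knockdowns and 23.4 ± 2.2 CPM in the controls (SD, n = 2 each), a log2 fold change of 0.33 ± 0.14 (SE; adjusted p = 0.0544 by edgeR). SHANK2 lies so close to the threshold that 4 of 12 alternative settings call it higher, among them leaving out Kyse150 control replicate 2 (edgeR adjusted p = 0.0495). NADSYN1 and CTTN, with the largest TE11 differences in the lower direction among the members tested in Kyse150, thus had log2 fold changes of 0.08 and 0.03 there.

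**Figure D4:**
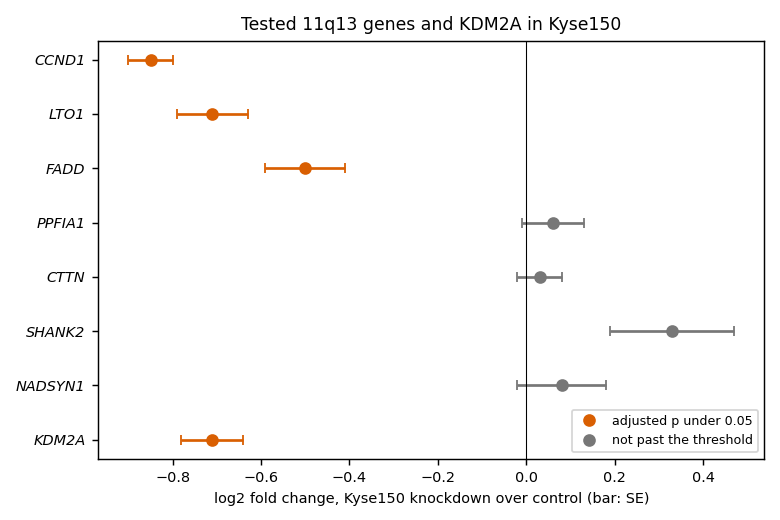
Log2 fold change with its SE of the 7 tested members and of KDM2A, Kyse150 knockdowns over Kyse150 controls (edgeR, 2 libraries in each group), in position order from top to bottom with KDM2A last. Orange marks an adjusted p under 0.05. CCND1, LTO1, FADD and KDM2A lie between -0.85 and -0.50, and the other 4 genes between 0.03 and 0.33.

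The genes around the set had mixed directions in Kyse150. On the centromeric side 8 of the 10 neighbours were tested, of which 3 rose and 4 fell, and on the telomeric side 2 of 10 rose and 4 fell. Over all genes tested in Kyse150, 24.8% rose and 23.3% fell, and these counts are too small to set the neighbours apart from those shares. CPT1A rose (53.2 ± 0.989 CPM in the knockdowns and 38.4 ± 2.81 CPM in the controls, SD, n = 2 each; log2 0.47, edgeR adjusted p = 5.87e-04), and LAMTOR1 fell (log2 -0.43, edgeR adjusted p = 4.52e-05). Both are opposite in sign to their TE11 values, a difference that was not tested.

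DHCR7 was not alone in its pattern over the groups. Of the 52165 identifiers in both tables, 207 had 0 counts in all 6 libraries outside the TE11 controls, where their mean was 5 CPM or more, and DHCR7 was the most abundant of these. Next came AKR1C2 at 810 ± 27.9 CPM in the TE11 controls (SD, n = 3) and AKR1C1 at 341 ± 16.9 CPM, aldo-keto reductases of steroid and carbonyl metabolism on chromosome 10. IGFBP4, an insulin-like growth factor binding protein on chromosome 17, was at 137 ± 4.4 CPM, and SLC12A7, a potassium-chloride cotransporter on chromosome 5, at 136 ± 8.35 CPM. Against the floor of 3 counts the libraries labelled TE11 knockdown were at least 4740-fold lower for AKR1C2, 2000-fold for AKR1C1, 803-fold for IGFBP4 and 799-fold for SLC12A7.

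Most genes of this pattern were not on chromosome 11. Chromosome 11 held 14 of the 207 (6.76%), against 677 of the 11818 genes that reach 5 CPM there (5.73%). Within 3 Mb of DHCR7 there were 2 of the 207, DHCR7 and AP002387.1, against 53 of the 11818. Among the 10 members, DHCR7 alone was at 0 in all 6 libraries outside the TE11 controls.

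The pathway partners of the members were then examined, without a test of any list. Of all genes tested, 24.8% rose and 23.3% fell in Kyse150. In TE11, 26.8% of all genes tested were at least 2-fold lower and 15% at least 2-fold higher. Of 20 cholesterol synthesis genes that share the pathway with DHCR7, 11 fell, 0 rose and 9 did not pass in Kyse150 (median log2 fold change -0.29, against 0 over all genes), although DHCR7 itself had 0 counts there. HMGCS1, which makes the precursor of mevalonate, averaged 34.3 CPM in the Kyse150 knockdowns and 90.7 CPM in the Kyse150 controls (0.378-fold, edgeR adjusted p = 4.46e-12). IDI1, the isopentenyl diphosphate isomerase, was at 43.7 and 86.4 CPM in the same groups (0.505-fold, edgeR adjusted p = 2.3e-09). In TE11, 11 of the 20 were at least 2-fold lower and 0 at least 2-fold higher in the libraries labelled knockdown (median -1.07). There HMGCS1 was at 113 CPM in the libraries labelled knockdown and 1700 CPM in the controls, whereas IDI1 had a log2 fold change of only -0.27.

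Of 6 sterol sensing genes 2 rose and 2 fell in Kyse150, beside 24.8% and 23.3% of all genes tested. INSIG1, which holds the sterol sensor complex in the endoplasmic reticulum, fell to 0.541-fold (edgeR adjusted p = 5.68e-09), whereas its relative INSIG2 rose 2.05-fold (edgeR adjusted p = 8.88e-05) and SREBF2, the transcription factor of cholesterol synthesis, rose 1.2-fold (edgeR adjusted p = 0.00228). In TE11 SREBF2 was at 88.2 CPM in the libraries labelled knockdown and 397 CPM in the controls (log2 -2.17). There 3 of the 6 were at least 2-fold lower, beside 26.8% of all genes tested.

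Among 11 G1 cyclins, kinases and inhibitors that act with CCND1, 3 rose and 5 fell in Kyse150, beside 24.8% and 23.3% of all genes. CCND2, which encodes cyclin D2, fell to 384 CPM in the Kyse150 knockdowns against 520 CPM in the Kyse150 controls (0.74-fold, edgeR adjusted p = 1.64e-07), and CCNE2, a later G1 cyclin, fell to 0.389-fold (edgeR adjusted p = 3.41e-07). CDK6, a kinase partner of cyclin D1, rose 1.44-fold (edgeR adjusted p = 4.3e-06). In TE11 CCND2 went opposite to CCND1, at 275 CPM in the libraries labelled knockdown and 9.4 CPM in the controls (log2 4.87). Cyclin D2 was thus abundant in every group but the TE11 controls.

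Of the FGF19 receptors, FGFR4 rose 1.54-fold (edgeR adjusted p = 0.00168) and FGFR2 1.21-fold (edgeR adjusted p = 0.0043) in Kyse150, and FGFR3 did not pass (log2 0.23, edgeR adjusted p = 0.245). In TE11, 3 of the 4 tested receptors were at least 2-fold lower in the libraries labelled knockdown, beside 26.8% of all genes tested. Among them FGFR4 was at 8.13 CPM in the libraries labelled knockdown and 59.0 CPM in the controls. KLB, the co-receptor, averaged at most 0.398 CPM in any group.

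Of 10 death receptor partners of FADD, 3 rose and 1 fell in Kyse150, beside 24.8% and 23.3% of all genes tested. RIPK1, a kinase of the same complexes, fell to 0.557-fold (edgeR adjusted p = 6.94e-07), whereas the receptor TNFRSF10B rose 1.32-fold (edgeR adjusted p = 1.41e-04) and CFLAR, an inhibitor of caspase 8, rose 1.48-fold (edgeR adjusted p = 0.0108). In TE11, 5 of the 10 were at least 2-fold lower and 1 at least 2-fold higher, beside 26.8% and 15% of all genes.

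The actin partners of CTTN differed less than CTTN in TE11, and in both directions, as in ARPC2 (log2 -0.76) and ARPC4 (log2 0.78). Of 10 genes of the Arp2/3 complex and partner proteins, 0 were at least 2-fold lower in the libraries labelled knockdown. In the other direction 1 was at least 2-fold higher, CTTNBP2NL (log2 1.02), which is not a subunit. The shares of all genes tested in TE11 were 26.8% lower and 15% higher at that fold. The median log2 of the 10 was 0.21, beside the 0.103-fold level of CTTN. ARPC1A and ARPC1B averaged at most 5.78 and 1.83 CPM in the TE11 groups, and at least 153 and 109 CPM in the Kyse150 groups. Each line has its own count table, with 60683 identifiers for TE11 and 57820 for Kyse150. A difference between the lines and one between the tables therefore cannot be told apart, and the cause of that gap was not tested. In Kyse150, 2 rose and 3 fell, beside 24.8% and 23.3% of all genes tested. ARPC4 fell to 0.703-fold (edgeR adjusted p = 2.59e-05) and ACTR3 to 0.808-fold (edgeR adjusted p = 4.75e-04). ARPC3 rose 1.25-fold (edgeR adjusted p = 0.0011), and all 3 are subunits of the complex.

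Of 9 genes of NAD metabolism beside NADSYN1, 5 were tested in Kyse150, where NAPRT fell to 0.847-fold (edgeR adjusted p = 0.0167) and 4 did not pass. NAPRT, the entry enzyme of the route from nicotinic acid that NADSYN1 completes, was opposite to NADSYN1 in TE11, at 70.0 CPM in the libraries labelled knockdown and 4.47 CPM in the controls (log2 3.96). NMNAT3, a mitochondrial enzyme of the same pathway, had 0 counts in the libraries labelled TE11 knockdown and 10.9 ± 0.708 CPM in the TE11 controls (SD, n = 3), at least 63.8-fold lower, and 0 counts in Kyse150. In all, 5 of the 9 were at least 2-fold lower and 1 at least 2-fold higher in TE11, beside 26.8% and 15% of all genes. The lower ones include NADK2 (log2 -1.65) and NNMT (log2 -2.56), whose enzymes do not make NAD.

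Of 7 relatives of PPFIA1 and SHANK2, 3 were tested in Kyse150. Among these PPFIA3, another liprin alpha, rose 2.11-fold (edgeR adjusted p = 9.5e-06) and PPFIBP1, a liprin beta, rose 1.25-fold (edgeR adjusted p = 0.00138). PPFIA4 had 0 counts in the libraries labelled TE11 knockdown and 10.4 ± 0.641 CPM in the TE11 controls (SD, n = 3), at least 61.1-fold lower. Both ribosome partners of LTO1 fell with it in Kyse150, ABCE1 to 0.573-fold (edgeR adjusted p = 2.87e-08) and YAE1, which binds LTO1, to 0.729-fold (edgeR adjusted p = 0.0324). In TE11 the groups overlapped for ABCE1 (log2 fold change 0.06, SE 0.07), whereas YAE1 was at 1.62, opposite in sign to LTO1.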

How the data were processed

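For each line the authors deposited a table of raw gene counts in whole numbers. Tools named in the submitters' processing notes are HISAT2 2.1.0, bcl2fastq 2.19, DESeq2 and HTSeq 0.9.1; of the builds named, GRCh38.p13 and GRCh37.p13, neither is tied to a table. Strand setting and annotation were not given in any source used here. The labels' protocols speak of 3 independent replicates, but 3 groups hold 2 libraries. Fragments on no gene (42.3% to 44.5% of a column) or on several genes (1.85% to 2.72%) were kept out.

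Identifiers were matched to symbols and to GENCODE positions on GRCh38; promoter sequences are from RefSeq, which had windows for 6 members. Genes were kept by filterByExpr (minimum count 10), scaled by TMM and tested within each line with edgeR 4.0.16 (robust quasi-likelihood, Benjamini-Hochberg over all genes, threshold 0.05) in R 4.3.3. The fit was tested on simulated data. A gene at 0 in a group was set against 3 counts over that group, and 1 to 3 counts were given as a ratio with an exact 95% interval; both cover counting error only. Replicates differed by more than sampling noise (chi-square per degree of freedom 1.62 to 4.91).

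Members, neighbours and lists were chosen with earlier results of these data known. Besides the members, the text names KDM2A, neighbours with 10 counts or more, the 5 genes most like DHCR7 by their zeros and TE11 control level, and of each list the 3 with the smallest p in Kyse150 and any at 0 in a group with 10 CPM or more in another. Some genes this rule selects are not reported here. Alternatives were DESeq2 1.42.0, other scalings and filters, a replicate block, all 9 libraries in 1 fit, and each library left out.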

Additional observations from a re-analysis of the deposited data

Results flagged for a closer look

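PPFIA1 differed in sign between the 2 lines, without overlap of the groups in either. In Kyse150 both knockdowns (139 and 139 CPM) were above both controls (136 and 131 CPM), with a log2 fold change of 0.06 that did not pass the test (edgeR adjusted p = 0.545). In TE11 both libraries labelled knockdown (124 and 117 CPM) were below all 3 controls (649, 610 and 613 CPM), with a log2 fold change of -2.37. The difference between the lines was not tested.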

How the results depend on the processing

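In Kyse150, CCND1 (log2 fold change -0.86 to -0.80), LTO1 (-0.85 to -0.6) and FADD (-0.53 to -0.45) passed the threshold in the lower direction under all 12 alternatives, so 3 members were called lower in each. The count of members called higher was 0, and it was 1 (SHANK2) under upper-quartile scaling (0.35, edgeR adjusted p = 0.0361), with no scaling factor (0.38, adjusted p = 0.031), with a minimum count of 30 (0.35, adjusted p = 0.0393) and without Kyse150 control replicate 2 (0.42, adjusted p = 0.0495); leaving out single libraries gave 0 to 1. SHANK2's adjusted p ranged from 0.031 to 0.309, and the cause was not tested. PPFIA1, CTTN and NADSYN1 passed under none of the 12. DESeq2 called 2156 genes higher and 2181 lower, against 3490 and 3281 with edgeR; the cause was not tested. In TE11, 6 to 7 members were at least 2-fold lower over 13 alternatives, FGF19 being filtered out at a minimum count of 30, and no direction reversed; leaving out a library moved FGF19 to -2.24 or -2.76 and the DHCR7 bound to -12.84 or -12.77 (log2), with 1 library in the group.

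Replicate numbers are shared between groups, but with 2 pairs they only number the samples: deviations of same-numbered libraries correlated at -0.0683 in Kyse150 and at -0.00983 and 0.000581 in TE11. With the replicate block, 3301 genes were called higher and 3094 lower in Kyse150, with 3 members lower and 0 higher, and no member's call changed.

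Depth limits FGF19, ANO1 and DHCR7 in Kyse150, where 6 or fewer counts per group allow no test.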
